A study of Homo sapiens with 6 samples.

Results

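The clustered protocadherins are a family of cell surface adhesion genes that lie side by side on human chromosome 5 in the alpha, beta and gamma clusters. They were examined in an experiment on knockdown of *RBMS3*, which codes for an RNA-binding protein, in MDA-MB-231, a triple-negative breast cancer line of mesenchymal character whose total RNA was sequenced. The members were the genes of the authors' table whose symbol starts with PCDHA, PCDHAC, PCDHB, PCDHGA, PCDHGB or PCDHGC and a number. This rule found 30 of the 15917 genes in the table, 2 of the alpha cluster, 9 of the beta cluster and 19 of the gamma cluster. The series has 6 libraries. Cells with a control hairpin (shCTRL, genotype WT) gave 2 libraries, cells with the *RBMS3* hairpin shRBMS3-B3 (genotype RBMS3 KD1) gave 2, and cells with the hairpin shRBMS3-C3 (genotype RBMS3 KD2) gave 2. All of them carry a hairpin that was delivered by lentivirus and selected with puromycin. Whether the libraries of a hairpin come from separate cultures is stated only as biological replicates. The value read for each gene is the authors' mean normalized count, a single number that pools the libraries of their comparison. Which libraries it pools is not stated with the table. The comparison is elsewhere described with 2 knockdown and 2 control replicates, so the mean may rest on 4 of the 6 libraries and on a single hairpin. It carries no replicate error, gives no level of a single library or hairpin, and leaves the depth of the libraries unknown, so levels are described here and no difference between knockdown and control cells was tested.

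A clustered protocadherin of the alpha or gamma type is built from a large variable first exon, which has a promoter of its own and encodes the extracellular cadherin repeats, the membrane span and the start of the cytoplasmic tail. This exon is spliced to small constant exons that all genes of the cluster use. A beta protocadherin has its coding sequence in a single exon and lacks a constant part. The family is best known in neurons, where each cell uses a few members chosen largely at random and homophilic contacts between matching proteins let a cell tell its own branches from those of others. The C-type genes at the end of the alpha and gamma clusters are regulated apart from the others. Choice of a promoter is known to depend on DNA methylation, on the insulator protein CTCF and on loops formed with cohesin.

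The line was checked against markers first. *VIM*, an intermediate filament of mesenchymal cells, had an authors' mean normalized count of 69335, *AXL* one of 35387 and *CD44* one of 10047, all at percentile 98.5 of the listed genes or higher. *CDH1*, the epithelial cadherin, had 31.6, close to the lowest value in the table (26.7). *EPCAM*, also listed beforehand as a low or absent marker, had 107, at percentile 25.7. The receptor genes *ESR1* and *PGR* and the mesenchymal marker *SPARC* had no row and were not analysed here. *ERBB2*, listed beforehand as a low or absent marker as well, went the other way with 1557, at percentile 83.4. Of 6 neuronal genes, *SNAP25*, *RBFOX3* and *STMN2* had no row. *SYT1* and *MAP2* were low, with means of 70.4 and 66.5, and *TUBB3*, a tubulin also made by many tumour cells, had 1565. The targeted gene *RBMS3* had a mean of 272. Its depletion cannot be checked from a value that pools knockdown and control libraries.

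The members as a group were expressed at a low level. Of the 30, 29 lay below the median authors' mean normalized count of all listed genes (364), and the exception was *PCDHGB2* with 418. Their median was 93.6, at percentile 23.7 of the listed genes. Levels of different genes were compared per length, as the authors' mean per kilobase of the representative transcript. On that scale all 30 members lay below the median of the listed genes, which was 137. The gamma cluster held 71.3% of the summed level per kilobase of all members, the beta cluster 22.1% and the alpha cluster 6.62%. These sums run over 19, 9 and 2 members. The median level per kilobase of a member was 23.9 in the gamma, 21.9 in the beta and 27.2 in the alpha cluster. The alpha value is the midpoint of only 2 members, at 6.21 and 48.1 per kilobase, and describes neither.

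**Figure D1:**
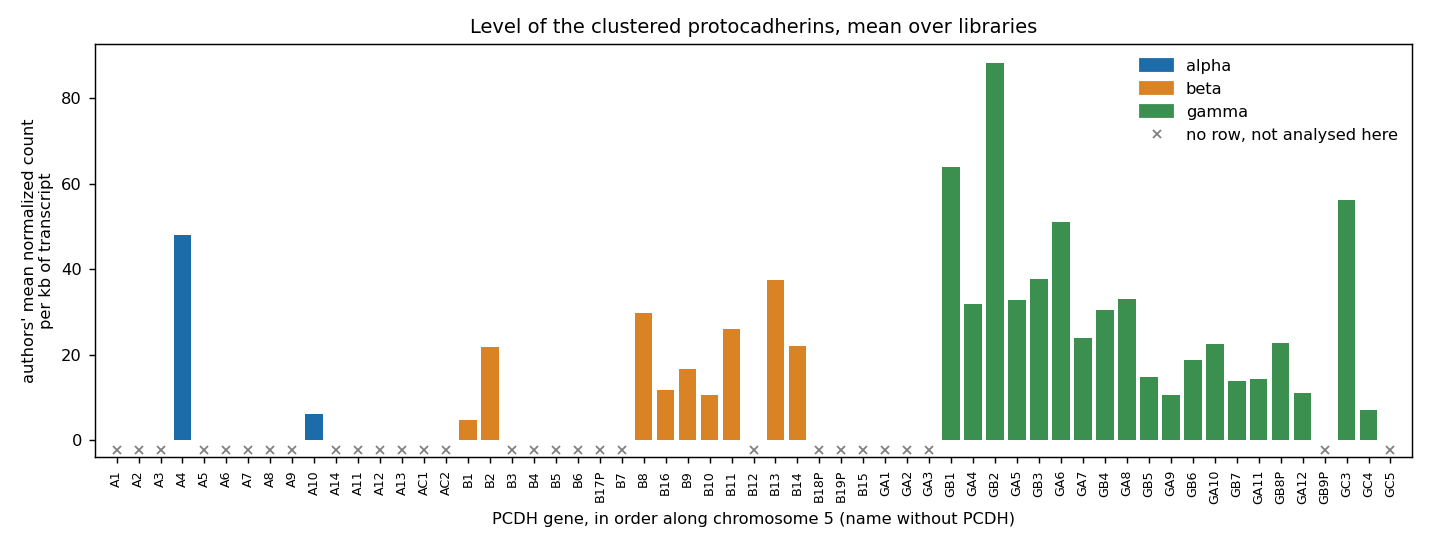
Authors' mean normalized count per kilobase of representative transcript (vertical axis) for the 59 annotated genes of the 3 clusters in their order along the chromosome (horizontal axis), one bar per gene with a value, blue for alpha, orange for beta and green for gamma; crosses mark the 29 genes with no row in the table. The values are pooled means and carry no error bars. PCDHGB2 reaches 88.2, PCDHA4 stands at 48.1 among alpha genes that mostly have no row, and the gamma bars become lower along the cluster until PCDHGC3 at 56.3.

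**Figure D2:**
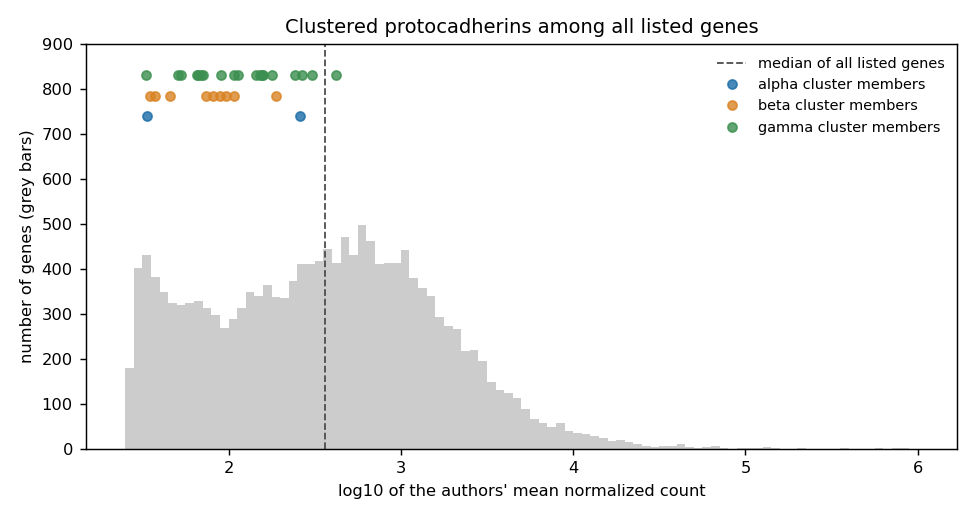
Number of genes (grey bars, vertical axis) by log10 of the authors' mean normalized count (horizontal axis) for all 15917 listed genes, with the 30 members as points whose height only separates the clusters. All members but PCDHGB2 lie to the left of the dashed line at the median of 364.

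In the alpha cluster, *PCDHA4* and *PCDHA10* were the members with a value, of 16 annotated genes (15 coding and the pseudogene *PCDHA14*). The cluster spans chromosome 5 from 140786136 to 141012347 on the plus strand in GENCODE release 44 on GRCh38, and every coding gene in it ends at the same base. *PCDHA4* (ENSG00000204967) had an authors' mean normalized count of 259, or 48.1 per kilobase. *PCDHA10* (ENSG00000250120) had a mean of 33.6, or 6.21 per kilobase, near the lower end of the table at percentile 4.98. The level per kilobase was thus 7.76-fold higher for *PCDHA4*, which held 88.6% of the sum of this pair. The other 11 genes of this type among *PCDHA1* to *PCDHA13* and both C-type genes, *PCDHAC1* and *PCDHAC2*, had no row and were not analysed here.

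In the beta cluster, 9 of 19 annotated genes had a value. All 9 belong to the 16 coding genes, and the 3 pseudogenes had no row. The cluster runs from 141051374 to 141249365. The highest level was that of *PCDHB13* (ENSG00000187372), with an authors' mean normalized count of 189 and 37.4 per kilobase, followed by *PCDHB8* with 81.7 and 29.7 per kilobase and *PCDHB11* with 108 and 26.0 per kilobase. These 3 genes held 51.4% of the summed level per kilobase of the cluster, and *PCDHB13* alone 20.7%. Intermediate levels per kilobase were found for *PCDHB14* (22.0), *PCDHB2* (21.9) and *PCDHB9* (16.8), whose means were 97.1, 89.4 and 73.6. By the mean, *PCDHB8* lay below *PCDHB11*, *PCDHB14* and *PCDHB2*. Its higher place per kilobase depends on its annotated transcript of 2750 bases, the shortest of the 9. *PCDHB16* had a mean of 45.6 and 11.9 per kilobase, and *PCDHB10* had 35.2 and 10.7 per kilobase. Per kilobase, *PCDHB1* was lowest of all 30 members, with a mean of 37.4 spread over a transcript of 7973 bases, or 4.69 per kilobase. This place depends on that length, for by the mean *PCDHB10* (35.2), *PCDHA10* (33.6) and *PCDHGC4* (33.3) were lower. The coding sequence of *PCDHB1* is also the one least like the others, as described further on. The members with a value lay mostly in one stretch from *PCDHB8* to *PCDHB14*, where *PCDHB12* was the single gene without one. The genes from *PCDHB3* to *PCDHB7* had no row. Since every level is a pooled mean without an error, neighbours in this order such as *PCDHB14* and *PCDHB2* cannot be told apart.

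The gamma cluster, from 141330514 to 141512977, was the most completely represented, with 19 of 24 annotated genes. These were 9 of 12 A-type genes, 8 of 9 B-type genes and 2 of 3 C-type genes. *PCDHGB2* (ENSG00000253910) had the highest level of any member, with an authors' mean normalized count of 418 and 88.2 per kilobase, at percentile 53.3 of the means of all listed genes. *PCDHGB1* followed with a mean of 303 and 63.8 per kilobase. *PCDHGC3* (ENSG00000240184), a C-type gene, came next with 268 and 56.3 per kilobase. The cluster had no dominant member as the alpha cluster did, for *PCDHGB2* held 15.1% of the summed level per kilobase and the 3 highest genes together held 35.6%. The lowest level was that of the other C-type gene with a value, *PCDHGC4*, with a mean of 33.3 and 6.98 per kilobase, 12.6-fold below *PCDHGB2*. *PCDHGA9* was the next lowest, at a mean of 51.1 and 10.7 per kilobase.

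The remaining A-type genes had authors' mean normalized counts of 244 for *PCDHGA6*, 158 for *PCDHGA8*, 157 for *PCDHGA5*, 153 for *PCDHGA4*, 114 for *PCDHGA7*, 108 for *PCDHGA10*, 69.0 for *PCDHGA11* and 53.3 for *PCDHGA12*. The remaining coding B-type genes had means of 180 for *PCDHGB3*, 145 for *PCDHGB4*, 90.1 for *PCDHGB6*, 70.7 for *PCDHGB5* and 66.4 for *PCDHGB7*. The median level was 23.9 per kilobase over 9 A-type genes and 26.6 over 8 B-type genes. The A-type genes ran from 10.7 to 51.0 per kilobase and the B-type genes from 13.9 to 88.2, with *PCDHGB2* and *PCDHGB1* above every A-type gene. The B-type genes include *PCDHGB8P*, a unitary pseudogene, which had a mean of 65.4 and 22.8 per kilobase. This level lay above that of 7 of the 16 coding A-type and B-type members. The whole count was also divided by the length that belongs to no other member, which is all of the pseudogene's transcript but only part of theirs. On that scale the pseudogene lay above 2 of the 16, *PCDHGA9* and *PCDHGA12*. Reads on shared exons stay in the counts of the coding genes, so this scale raises their levels and leaves that of the pseudogene unchanged.

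The level per kilobase of the A-type and B-type gamma genes became lower in the direction of transcription. From *PCDHGB1* to *PCDHGA8* it lay between 23.9 and 88.2 in 9 genes, with a median of 33.0. From *PCDHGB5* to *PCDHGA12* it lay between 10.7 and 22.8 in 8 genes, with a median of 14.6. The ranges do not overlap, but the point of division was chosen after the values were seen. Across the 17 genes, order and level had a Spearman's rho of -0.81 and a Pearson's r of -0.74, and without the pseudogene rho was -0.84 in 16 genes. This describes genes of the same pooled libraries, which are not independent, and the series starts only after *PCDHGA1*, *PCDHGA2* and *PCDHGA3*, which stand first in the cluster and had no row. In the beta cluster the order of 9 genes gave a rho of 0.48 in the other direction. It describes 9 genes of which each value is a pooled mean.

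How far reads can be assigned to one member limits all of these levels. The annotated span of *PCDHGB1* covers 162877 bases and contains the start of 20 other members, 18 of them with a value, all on the same strand. That of *PCDHA4* covers 205311 bases and contains the start of 12. The libraries were made from total RNA, which can hold unspliced transcripts, and their part in these levels was not tested. Of the representative transcript of the 2 alpha members, 46.6% and 47.0% of the bases belong to no other clustered protocadherin, and the rest lies in exons that the cluster shares. For the gamma members with coding sequence this share was between 51.6% (*PCDHGB4*) and 55.2% (*PCDHGA12*). No base of a beta member belongs to another member. Similar sequence adds to this. Each transcript was cut into all windows of 75 bases, the nominal length of a single read in the study's paired-end run. What the second read of a pair adds was not counted. The windows found in no transcript of another gene made up a median of 47.0% in the alpha members, 53.5% in the gamma members and 84.6% in the beta members. The lowest in the beta cluster were *PCDHB8* with 61.4% and *PCDHB10* with 71.0%. *PCDHB1* and *PCDHGB8P* had 100%, so no window of theirs occurs in an annotated transcript of another gene. With windows of 31 bases they had 93.9% and 93.7%. The pseudogene also lies inside the annotated span of *PCDHGB1*, so unspliced transcripts of that gene could hold its windows, and these were not counted. Levels of the other members depend on how the authors' program divided reads that match several genes, and they are uncertain to that extent. Across the 16 coding A-type and B-type gamma genes the share of such windows and the level per kilobase had a rho of -0.29. The part of this division in the fall of the level along the cluster was not tested.

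**Figure D3:**
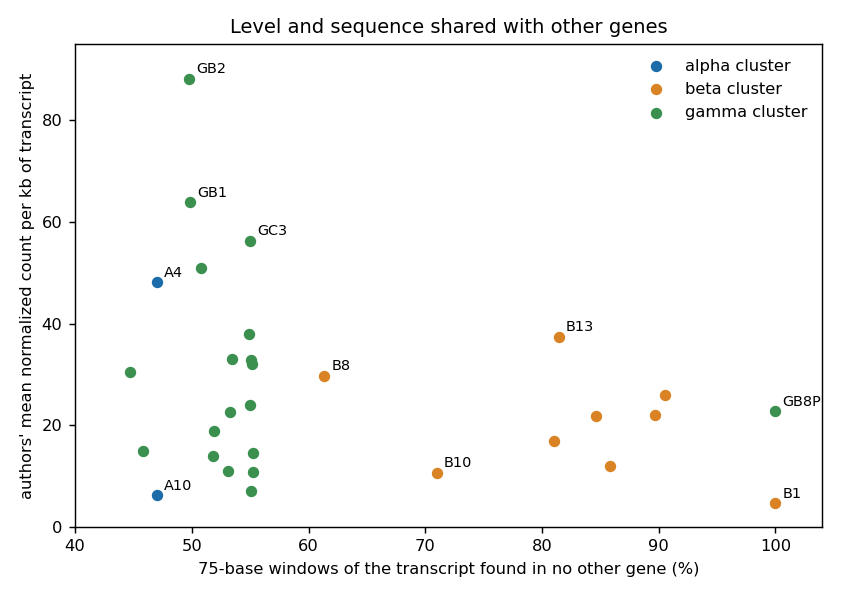
Authors' mean normalized count per kilobase of transcript (vertical axis) against the percentage of 75-base windows of the transcript that occur in no annotated transcript of another gene (horizontal axis), one point per member, coloured by cluster. Alpha and gamma members crowd between 44.7% and 55.3% because they share constant exons, apart from PCDHGB8P at 100%, and beta members lie from 61.4% to 100%.

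The first coding exons show which members are most alike. Within the beta cluster the nucleotide identity of 120 pairs of coding genes had a median of 79.7%, and it reached 93.9% between *PCDHB8* and *PCDHB13*, 92.8% between *PCDHB9* and *PCDHB10* and 91.2% between *PCDHB11* and *PCDHB12*. The last of these pairs joins a gene with a value to a gene without one. *PCDHB1* stood apart, with 62.8% identity to its closest relative *PCDHB2*. Identity within the alpha cluster had a median of 80.2% over 105 pairs, and the closest relatives of *PCDHA4* (*PCDHA9*, 84.2%) and of *PCDHA10* (*PCDHA12*, 81.4%) had no row. The gamma genes were less alike, with a median of 62.5% over 231 pairs. Their closest pair was *PCDHGB4* and *PCDHGB5* at 85.0%, and *PCDHGC3* was the gamma gene least like any other, at 60.4% to *PCDHGA12*. Between clusters the median was 60.0%.

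Each variable exon has its own promoter, and short stretches of these promoters are nearly the same within a cluster. They are shown because in each cluster genes with and without a value hold the same stretch near the start of transcription. Not all matched genes of a cluster hold it. RefSeq promoters on GRCh38.p14, from 250 bases before to 50 bases after an annotated start, were matched by symbol for 47 of the 59 annotated genes and for 27 of the 30 members, all but *PCDHB11*, *PCDHGA12* and *PCDHGB8P*. In each cluster the word of 10 bases held by the most promoters was found, read on the plus strand, and then counted on both strands. In the beta cluster this word was GGTGGCGCTG, held by 12 of 14 promoters against 97 of 35116 promoters of all genes (0.276%). It was held by 6 of the 8 genes with a value and by all 6 without one. The word is in capitals, with 10 bases on either side.
PCDHB13, chr5:141213866-141213895: gaggacgcgtGGTGGCGCTGcaggataaga
PCDHB8, chr5:141177778-141177807: gaggacccgtGGTGGCGCTGcaggataaga
PCDHB2, chr5:141094545-141094574: agagacgcggGGTGGCGCTGcagccttaga
PCDHB9, chr5:141187075-141187104: gaagccacaaGGTGGCGCTGcagactgaag
PCDHB10, chr5:141192300-141192329: gaggccacacGGTGGCGCTGcaggctaaag
PCDHB16, chr5:141182311-141182340: gagaacgcgtGGTGGCGCTGcaggttaaga
PCDHB12, no value, chr5:141208644-141208673: ggagacgcgtGGTGGCGCTGcaggataata
PCDHB4, no value, chr5:141121724-141121753: caagacgcagGGTGGCGCTGcaggctaagt
PCDHB15, no value, chr5:141245315-141245344: gacaacgcatGGTGGCGCTGcaggctaagg

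In the alpha cluster the word ATGATGTCGC was held by 8 of 13 promoters, against 11 of all promoters (0.0313%). It was 1 of 3 words tied for the most promoters, and of these the one rarest among all promoters was taken. In each cluster the count over all promoters includes those of the cluster itself. The only one of these 8 genes with a value was *PCDHA4*, the higher of the alpha members, and *PCDHA10* did not hold the exact word. Examples are given in the same form.
PCDHA4, chr5:140806978-140807007: ttggagccacATGATGTCGCtctttaccac
PCDHA8, no value, chr5:140841129-140841158: ttgaagccacATGATGTCGCtgtctaccaa
PCDHA1, no value, chr5:140786085-140786114: cattggccacATGATGTCGCtgtacaccac

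In the gamma cluster the word was GCGCCGCTGT, held by 9 of 20 promoters, against 46 of all promoters (0.131%). Of these 9 genes, 8 had a value, and the exception was *PCDHGA1*. The highest member, *PCDHGB2*, and both C-type members lack the exact word in this window, whereas *PCDHGB1* holds it.
PCDHGB1, chr5:141350027-141350056: caacctctggGCGCCGCTGTcgaccaaaag
PCDHGA8, chr5:141392570-141392599: aggactgtaaGCGCCGCTGTtcacctactg
PCDHGB4, chr5:141387619-141387648: ctgactctggGCGCCGCTGTtggccaaagt
PCDHGB5, chr5:141397865-141397894: ctgactctggGCGCCGCTGTtggccaaagt
PCDHGA1, no value, chr5:141330405-141330434: aggactgtggGCGCCGCTGTtcactaatct

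In the alpha cluster the first base of the word lay between -88 and -45 relative to the annotated start of the gene, in the beta cluster between -84 and -2, and in the gamma cluster between -99 and -44. *PCDHGB1* has a further annotated start, from which the same word lies at -224. The words were chosen on these sequences and describe them. They say nothing of which factor binds there, and in each cluster the same word stands before genes with and without a value.

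The study connects *RBMS3* with an AUA element in the 3′ untranslated region (3′UTR) of its target transcripts, written as any of A, G or T, then A or T, then ATA, then A or T, then A. Because of the constant exons, the 15 coding alpha genes have a single 3′UTR in common in their representative transcripts, and so do the 22 coding gamma genes, whereas each of the 16 coding beta genes has one of its own. In these representative transcripts the alpha 3′UTR of 2410 bases holds 6 matches, counted with overlaps. The gamma 3′UTR of 1802 bases holds 1 match. The 9 beta members hold from 1 to 20, with a median of 5. These counts depend on the transcript. Unspliced transcripts of 1 exon, which end before the constant exons, are annotated with longer 3′UTRs of their own for both alpha members and for 3 gamma members. They hold 14 matches for *PCDHA4*, 43 for *PCDHA10*, 25 for *PCDHGB4*, 9 for *PCDHGB6* and 6 for *PCDHGA6*. Which of these transcripts the cells made was not tested. Over all 12351 listed genes with a 3′UTR of at least 7 bases, 84.8% had at least 1 match, the median was 3 matches and the density was 2.79 matches per kilobase. The density was 3.98 per kilobase in the pooled 3′UTRs of the beta members, 2.49 in that of the alpha cluster and 0.555 in that of the gamma cluster.

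The shared gamma 3′UTR is also poor in A and U, which make up 44.5% of it, against 62.1% in the alpha cluster, 64.0% over the beta members and a median of 57.9% over the listed genes. Of the 5060 listed genes with a 3′UTR at least as long, 9.33% had at most 1 match. The single gamma match contains AATAAA, the signal for polyadenylation, and ends 16 bases before the annotated transcript end. It serves as the 3′UTR match of the representative transcripts of all 18 coding gamma members, so these are not 18 separate cases. The element is in capitals below, with 11 bases on either side, in the letters of the genome.
Gamma cluster, chr5:141512942-141512970: cgacaaaaaaaTAATAAAacgtttcttct
The alpha matches lie at bases 502, 1133, 1447, 1972, 1974 and 2385 of the 3′UTR, and 3 of the 6 contain AATAAA. The match at base 1447 and the last one, 19 bases before the transcript end, are given.
Alpha cluster, chr5:141011373-141011401: taagactcctgAAATATActtactctgtg
Alpha cluster, chr5:141012311-141012339: tctgttattgcTAATAAAtgaaaatggtg

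Among beta members the longest 3′UTR, that of *PCDHB1* with 5419 bases, holds the 20 matches. *PCDHB9* has 12 matches in 1829 bases, *PCDHB11* 8 in 1611 bases and *PCDHB2* 7 in 1516 bases. *PCDHB10*, *PCDHB14* and *PCDHB16* have 5 each. *PCDHB13*, the member with the highest level in the cluster, has 4 matches in 2459 bases, or 1.63 per kilobase, the lowest density of the 9. *PCDHB8*, whose coding exon is 93.9% identical to that of *PCDHB13*, has an annotated 3′UTR of only 99 bases, which holds 1 match. That makes 10.1 per kilobase, the highest density of the 9, in the gene next to *PCDHB13* in level per kilobase. This place in level also depends on the short annotated 3′UTR, and by the mean *PCDHB8* lay lower among the beta members. In all, 30 of the 67 matches in beta members contain AATAAA. A site of *PCDHB13*, one of *PCDHB8* and one of *PCDHB2* are given in the same form.
PCDHB13, chr5:141217295-141217323: tataatttaatGTATATAcaccagaaact
PCDHB8, chr5:141180441-141180469: ttgatttcataTTATATAttttaattttt
PCDHB2, chr5:141097644-141097672: atatttatgaaTAATATAgcaagcaccgt
A match is a description of these letters and does not show that RBMS3 binds there.

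**Figure D4:**
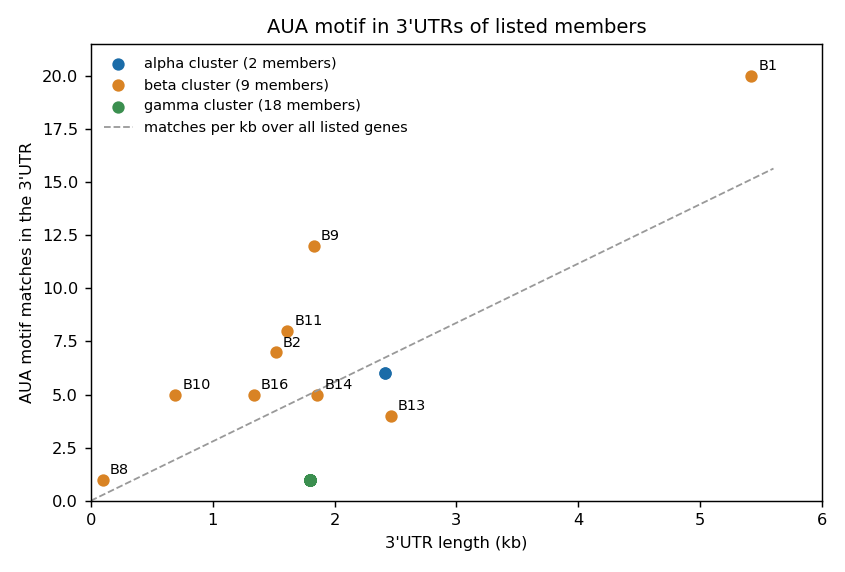
Matches to the AUA element (vertical axis) against the length of the 3′UTR in kilobases (horizontal axis) for the members with a value and a 3′UTR, coloured by cluster; the 2 alpha members fall on one point and the 18 gamma members on another because each cluster shares its 3′UTR. The dashed line is the density over all listed genes, 2.79 per kilobase, and the gamma point lies far below it with 1 match in 1802 bases.

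The genes that are known to regulate clustered protocadherins or to work with them were mostly far above the members. All 8 genes of chromatin looping had a value, from 158 per kilobase for *STAG1*, a cohesin subunit, to 1886 for *RAD21*, another, with *CTCF* at 414. All 6 genes of silencing had a value. *DNMT1*, the maintenance DNA methyltransferase, was highest at 2375 per kilobase, and the de novo methyltransferase *DNMT3A* lowest at 23.0, which is within the range of the protocadherins themselves. *SMCHD1*, a repressor known to act on these clusters, stood at 133 per kilobase. All 5 genes of the proteases that cleave protocadherins were present, from 129 per kilobase for *ADAM10* to 630 for *APH1A*. Of 5 signalling partners, 4 had a value. *CTNNB1* had 1839 per kilobase, the focal adhesion kinase gene *PTK2* 827 and its relative *PTK2B* only 8.43, and *RET* had no row. The 5 genes of the WAVE complex, an actin regulator that binds protocadherin tails, lay between 80.5 per kilobase for *NCKAP1* and 596 for *BRK1*. *RBMS3* itself had 32.1 per kilobase, a value like that of *PCDHGA4* (32.0) and *PCDHGA5* (32.9). As the targeted gene, it has a mean that pools knockdown and control libraries, so this is not its level in control cells.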

How the data were processed

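Total RNA of MDA-MB-231 cells was sequenced in 6 libraries, 2 each for a control hairpin and for the *RBMS3* hairpins B3 and C3, after ribosomal depletion with a stranded kit. The submitters' processing notes name Salmon, DESeq2 and hg38. The authors deposited 1 table. The signal that the authors deposited and that was read here is the mean normalized count of a gene, by the definition of that column in DESeq2 the mean over libraries of counts divided by size factors. The comparison is described with 2 knockdown and 2 control replicates, and it is not stated which of the 6 libraries these are. The annotation and the versions are not given in the sources used here. The other columns hold the authors' own comparison (fold change, standard error, statistic and p-values) and were not used. The design foresaw a test of counts per library, which these values do not allow. Each value is a pooled mean without SD or n, and its depth is unknown.

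GENCODE release 44 (GRCh38) was searched for each Ensembl identifier and held 15829 of them, lacking 88. All 30 member symbols were the same there. Annotated members were counted by symbol, without the antisense gene of *PCDHB1*. The representative transcript was MANE Select, otherwise Ensembl canonical. Identity is that of a global alignment by edit distance (edlib 1.3.9). Windows of 75 bases were sought on the sense strand of 252835 transcripts. Functions were tested on simulated data, with 7 of 7 checks passed. The division of the gamma cluster and the promoter words were chosen after values and sequences were seen. All members were named. Those described in depth were the 3 highest and 2 lowest per kilobase in each cluster, C-type genes and pseudogenes, and other genes came from fixed lists. Members and lists were chosen with earlier results of these data known. Python 3.11.15, pandas 2.3.3 and numpy 2.4.6 were used.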

Additional observations from a re-analysis of the deposited data

How the results depend on the processing

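Of 33 alternatives to 18 results, 12 gave an equal value, 1 lowered the count of gamma members from 19 to 18 by leaving out the pseudogene, and 20 moved the value. Counting rows at or above the median of all listed genes left 0 alpha, 0 beta and 1 gamma member. Among coding members alone the gamma median was 129 in place of 114. Against protein-coding genes alone the cluster medians lay at percentiles 19.9, 12.1 and 15.9, in place of 31.1, 21.6 and 26.7 for alpha, beta and gamma. The share of *PCDHA4* in its cluster was 88.5% per coding length, 90.0% per longest transcript and 88.7% per length of its own, that of *PCDHB13* 25.0% per coding length, and that of *PCDHGB2* 15.6%, 15.5% and 15.4% in the same order as for *PCDHA4*. The same genes led their clusters under every length. Windows of 31 bases lowered the median share found in no transcript of another gene to 38.9%, 73.8% and 47.5% for alpha, beta and gamma. The longest 3′UTR of each gene, for both alpha members that of an unspliced transcript (8009 and 9657 bases against 2410), raised the alpha median to 28.5 matches. It also changed the count of *PCDHB2* from 7 to 0 and those of 3 gamma members, and left the beta and gamma medians at 5 and 1. Counting AATAAA in place of the AUA element gave medians of 3 for alpha and 3 for beta. Leaving out each replicate, other normalizations, low count filters and each hairpin alone need values per library and were not run. No paired analysis was possible because each gene has one pooled mean, which carries no replicate number. For the same reason, no level here can be told apart from another by its spread.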

Other observations

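Cadherins and protocadherins outside the clusters were also read, as 10 genes with a value. Their authors' mean normalized counts ran from 29.5 for *CDH12* to 2842 for *CDH4*, which codes for the retinal cadherin, with a median of 63.1, against 93.6 for the clustered members. *CDH4* reached 426 per kilobase and *CDH11*, a cadherin of mesenchymal cells, 107, both above every clustered protocadherin. Among the non-clustered protocadherins, *PCDH7* had 37.7 per kilobase, next to *PCDHGB3* (37.8) and *PCDHB13* (37.4), and *PCDH9*, *PCDH1* and *PCDH20* had 12.5, 10.1 and 9.33.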
